A study of Mus musculus with 12 samples.

Results

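Glycerol kinase (Gk) and adipose triglyceride lipase (Pnpla2) were 2 of the 330 genes measured on a focused cDNA array in mouse liver, each from 1 of the 354 gene spots. The array lists glycerol kinase under its older name Gyk, which the RefSeq gene table gives as a synonym of Gk alone (gene ID 14933, on chromosome X). Pnpla2 (gene ID 66853, on chromosome 7) is listed under its current symbol. Both genes were selected on their measured difference between the diets, with that difference already known for each. Their differences between the diets are therefore given as a description, and the adjusted p-values that come with them support nothing.

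The study compared 12 male ApoEshl mice, aged 7 to 8 weeks per the labels, a line whose Apoe gene, needed to clear remnant lipoproteins, is defective through a spontaneous mutation. All 12 mice ate a high-fat diet for 12 weeks, 6 of them the diet alone (HFD group) and 6 the diet with 5% fucoidan (fucoidan group), which is a sulphated sugar polymer from brown algae. Mice on other diets were not analysed here. Each mouse was hybridised alone, in 1 colour, and all arrays lay on 1 slide, with HFD mice in blocks 1 to 12 and fucoidan mice in blocks 13 to 24, so that slide position and diet cannot be told apart. Whole liver was measured, in which fewer cells of a type and less RNA per cell cannot be told apart. Precision is limited by the number of arrays. With 1 array per mouse, p-values reflect only the spread of these mice and of their labelling and hybridisation together.

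The median gene-spot foreground of an array ran from 168 to 232 scanner units, and between 171 and 186 of the 330 genes were above its detection limit, which is the mean plus 2 SD of the 41 control and empty spots of the array. The correlation between normalised arrays, taken across genes and so not over independent replicates, was 0.902 to 0.985. Of 7 hepatocyte markers on the array 6 were above the limit on all 12 arrays. Of 10 adipocyte markers 7 were above it on no array, among them Adipoq, Lep, Plin1 and Lipe, while 2, Fabp4 and Cfd, were above it on all 12. The summed background-subtracted signal of the 10 adipocyte markers ran from 3683 to 5192 in HFD mice and from 2876 to 4296 in fucoidan mice, most of it from Cfd, and its part in the results was not tested. The Cfd spot is 1 of 41 gene spots, called failed spots here, where, on some array, the listed difference departs by more than 0.5 from foreground less background or the foreground exceeds the scanner maximum. Of the 7 hepatocyte markers only 3, Apoa1, Apoa2 and Apoc3, were not on failed spots, and these 3 were above the limit on all 12 arrays.

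Glycerol kinase adds a phosphate to glycerol, and the glycerol 3-phosphate it makes can enter glucose production or become the backbone of new triglyceride. Liver is a main site of this reaction, because it takes up the glycerol that adipose tissue releases. Adipose triglyceride lipase removes the first fatty acid from triglyceride in lipid droplets. In adipose tissue it starts the release of fatty acids during fasting, and in hepatocytes it frees fatty acids that are burned in mitochondria or act as signals for the receptor PPARalpha. The array gives no probe sequence for either gene.

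The promoters are printed to show the starts of both transcripts side by side, and the array holds no measurement of them. They come from RefSeq (GRCm38.p6), from 250 bases before to 50 bases after the start of the gene, 5′ to 3′ on the strand of the gene. Gk lies at chrX:85776770-85777069 on the minus strand and Pnpla2 at chr7:141454938-141455237 on the plus strand. Capitals mark the GC box GGGCGG or its reverse complement CCGCCC and, in Gk alone, the E-box CACGTG.
Gk: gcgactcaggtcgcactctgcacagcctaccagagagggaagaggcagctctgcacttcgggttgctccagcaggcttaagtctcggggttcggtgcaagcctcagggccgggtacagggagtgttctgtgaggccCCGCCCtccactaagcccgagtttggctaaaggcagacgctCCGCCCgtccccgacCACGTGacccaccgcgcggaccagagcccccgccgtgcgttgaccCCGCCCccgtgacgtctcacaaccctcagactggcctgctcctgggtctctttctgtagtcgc
Pnpla2: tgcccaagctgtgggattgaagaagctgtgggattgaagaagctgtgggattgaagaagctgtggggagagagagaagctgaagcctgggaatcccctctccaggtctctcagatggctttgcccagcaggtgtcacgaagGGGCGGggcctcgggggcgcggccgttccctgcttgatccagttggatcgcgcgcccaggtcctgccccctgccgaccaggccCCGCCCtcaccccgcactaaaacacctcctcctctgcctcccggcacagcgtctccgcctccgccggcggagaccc
Both promoters were rich in G and C, at 65.7% for Gk and 65.3% for Pnpla2 against a median of 52.7% over 32851 promoters of that length. Searched on both strands, the GC box was present 3 times in Gk and 2 times in Pnpla2, and 35.7% of all promoters held it. The E-box, found 1 time in Gk and not in Pnpla2, was in 7.15% of all promoters. The nuclear receptor half-site AGGTCA, which 16.3% of promoters held, and the FoxO core TGTTTAC, which 3.65% held, had no match in either window. A match is a description of letters, not of a bound site.

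Gk was a dim but clearly detected gene, and most fucoidan mice stood above all HFD mice. Its foreground was above the detection limit on all 12 arrays, by 2.0 to 2.87 times in HFD mice and 2.74 to 4.64 times in fucoidan mice. The listed difference was foreground minus background on every array, and no other spot shared its background values. Foreground minus local background was 158 at the lowest, 228 at the median and 296 at the highest in the HFD group. In the fucoidan group the same values were 243, 345.5 and 543, so that 4 of 6 mice lay above the brightest HFD mouse before any scaling. The highest signal, 543, came from fucoidan replicate 3, which was also the brightest array of the 12 by median foreground.

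**Figure D1:**
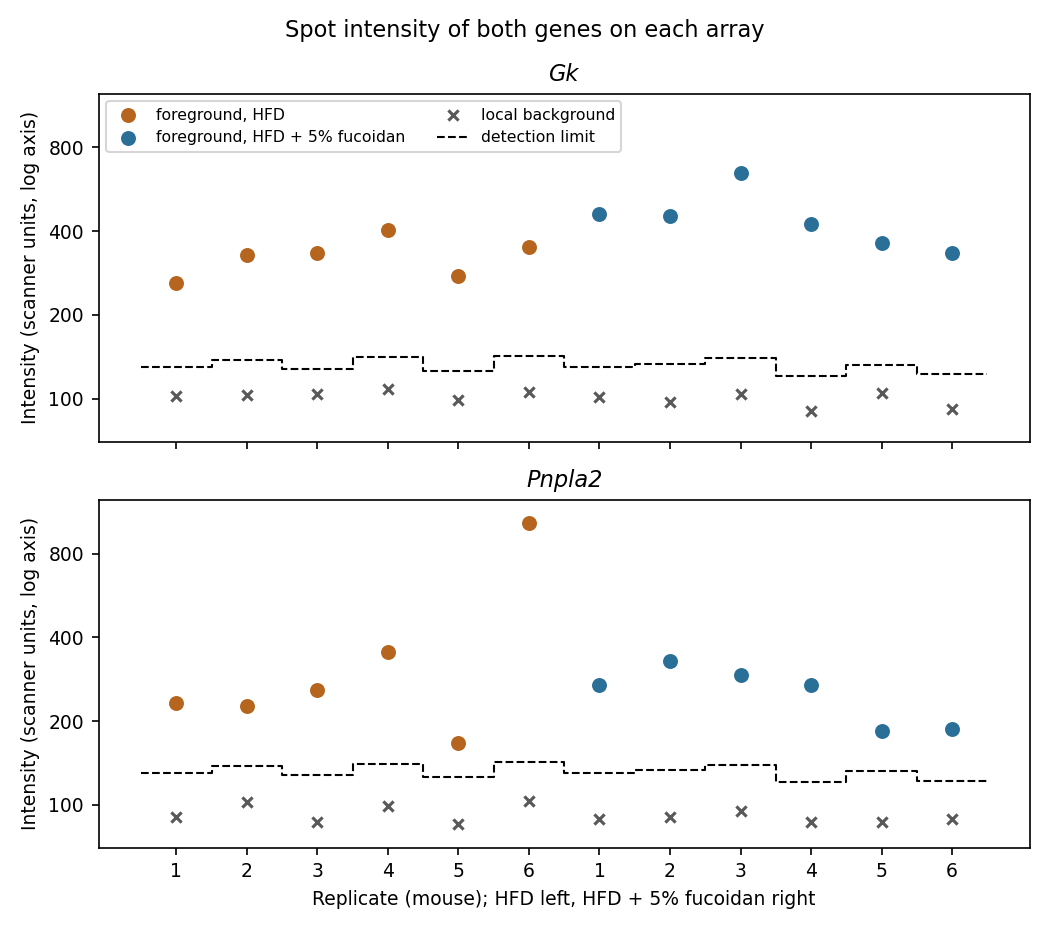
Foreground (points), local background (crosses) and detection limit (dashed line) of the Gk spot (top) and the Pnpla2 spot (bottom) on each of the 12 arrays, in scanner units on a log axis, HFD mice on the left and fucoidan mice on the right. Every point lies above the limit, and the Pnpla2 point of HFD replicate 6, at 1031, stands far above the other 11.

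After normexp background correction and quantile normalisation, the log2 intensity of Gk was 8.22 at the lowest, 8.44 at the median and 8.59 at the highest in the HFD group. It was 8.51, 8.76 and 8.91 in the fucoidan group. The groups overlapped through 2 mice only, HFD replicate 4 at 8.59 and fucoidan replicate 5 at 8.51, and 5 of 6 fucoidan mice exceeded the highest HFD mouse. HFD mice averaged 8.43 ± 0.13 and fucoidan mice 8.73 ± 0.15 (SD, n = 6 per diet). The difference of 0.31 log2 units (SE 0.09, 95% interval 0.12 to 0.50) is 1.24 times the HFD value on this scale (1.09 to 1.41). All 6 fucoidan mice were above the HFD mean. The correction adds an offset of 50 units to every spot, which draws the ratio of a dim gene toward 1. The Gk difference was 0.34 with an offset of 16 and 0.49 with plain subtraction of background. Before scaling, the ratio of the mean background-subtracted signals was 1.57.

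In the limma fit across the 181 genes above the limit on at least 6 arrays, Gk ranked 14th by p, with an adjusted p of 0.0464. In all, 8.29% of the genes tested passed the threshold of 0.05 and 3.87% passed as higher with fucoidan. The groups did not overlap for 6.08% of the genes tested, and both Gk and Pnpla2 were among the genes whose groups did. These shares are printed beside the call that chose Gk and nothing is read from them. Of the 15 genes that passed, 10 rested on failed spots. The Gk spot was not a failed one, but its adjusted p takes in the ranks of all genes tested, failed spots included. With the failed spots left out before normalisation, the unadjusted limma p of Gk was 0.0028 against 0.0036 as reported. Its adjusted p was then 0.207, and 0 of 147 genes passed.

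Pnpla2 did not pass the test between the diets, and under the reported setting its mean difference came from 1 mouse. Its foreground was above the detection limit on all 12 arrays, by 1.33 to 7.22 times in HFD mice and 1.40 to 2.46 times in fucoidan mice. As for Gk, the listed difference was exact on every array and no other spot shared the background. Foreground minus background was 82 at the lowest, 157 at the median and 928 at the highest in the HFD group, against 97, 181 and 238 in the fucoidan group. HFD replicate 6 gave the value of 928, which was 3.625 times the next highest HFD mouse at 256, and the remaining 11 mice lay between 82 and 256.

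The normalised log2 intensity of Pnpla2 ran from 7.77 to 9.83 with a median of 8.20 in HFD mice and from 7.72 to 8.38 with a median of 8.11 in fucoidan mice. The fucoidan range lay inside the HFD range except for its lowest mouse. HFD mice averaged 8.37 ± 0.75 and fucoidan mice 8.09 ± 0.25 (SD, n = 6 per diet). The difference of −0.29 log2 units (SE 0.30, 95% interval −0.94 to 0.36) did not pass in limma (adjusted p = 0.592). It was 0.0034 without HFD replicate 6 (95% interval −0.33 to 0.34), and the mean of the other 5 HFD mice was 8.08 ± 0.27. The interval without that mouse covers changes of about the size seen for Gk in either direction, so the data do not show that Pnpla2 was the same on both diets. The log2 difference of Gk exceeded that of Pnpla2 by 0.60 with all 12 mice and by 0.30 without HFD replicate 6.

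**Figure D2:**
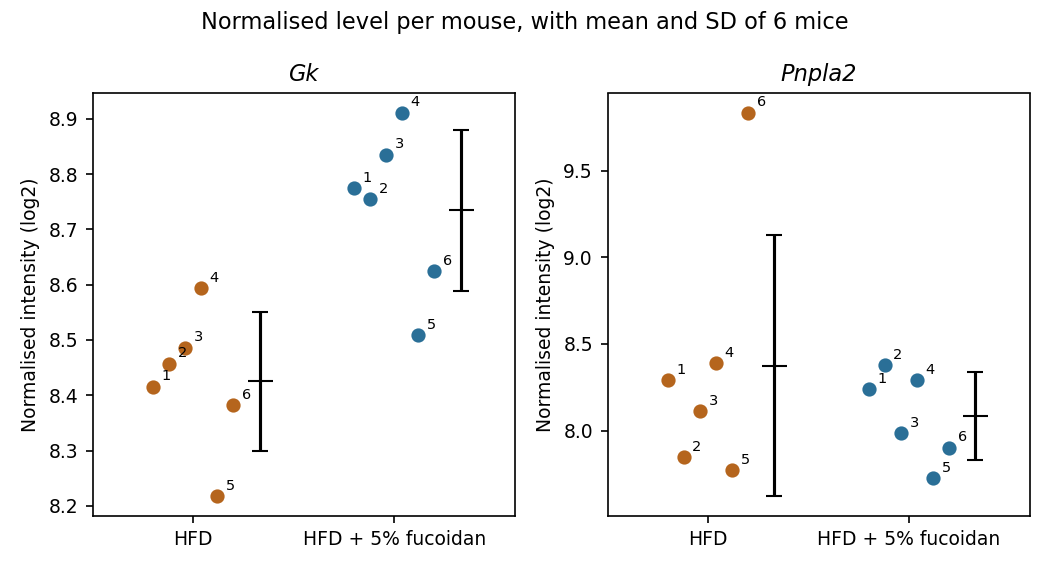
Normalised log2 intensity of Gk (left) and Pnpla2 (right) per mouse, numbered by replicate, with the mean and SD of each group of 6 in black. For Gk 5 of 6 fucoidan mice lie above every HFD mouse, and for Pnpla2 the groups overlap apart from HFD replicate 6 at 9.83.

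Several other measures of HFD replicate 6 lay within the range of the other arrays. Its median foreground was 225, against 168 to 232 for all arrays, and was the highest of the HFD group. Its detection limit, 142.8, was the highest of the 12 arrays. Its mean correlation with the other arrays was 0.945. By a measure of the gap to the nearest mouse of the group, it stood out as high in 3 of 181 genes tested, against 0 to 4 for the other mice. Its Gk value, 8.38, lay within the range of the HFD group. Of 5 spots next to the Pnpla2 spot, 1 was also higher in this mouse than in the other HFD mice, that of the kinase subunit Pik3r1 at 739 against 251 to 394. The summed adipocyte markers reached 4393 in this mouse and ranked 5th of 6 in the HFD group, while without the failed Cfd spot they summed to 712, the highest of an HFD range from 149 and inside a fucoidan range of 186 to 1216. Adipoq, Lep, Plin1 and Lipe were below the detection limit in this mouse as in all others. Fabp4, whose spot was not a failed one, was above the limit on all 12 arrays and is part of the sum of 712. The macrophage-associated genes Cd36 and Ccl2 summed to 2837 in this mouse, the highest of an HFD range from 1193 and above a fucoidan range of 1538 to 2302. The Ccl2 spot is a failed spot, and Cd36 alone gave 1240 in this mouse, the second highest of an HFD range of 243 to 1323 and inside a fucoidan range of 324 to 1605. The part of these genes in the Pnpla2 value was not tested.

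The direction of the Gk difference did not depend on the scaling, but its size and its call did. It was 0.44 log2 units with median scaling, 0.44 with no normalisation between arrays, 0.32 with cyclic loess and 0.22 with each array scaled to its housekeeping genes. Plain subtraction of background, with values floored at 16, gave the largest difference, 0.49 (SE 0.12, limma adjusted p = 0.0131). Scaling to the housekeeping genes moved the median difference of all genes tested from 0.04 to −0.12. In the reported fit the housekeeping genes were themselves higher with fucoidan, from 0.09 for Actb to 0.41 for Gapdh. Gapdh passed (limma adjusted p = 0.032), with a difference larger than that of Gk. Relative to that median, Gk stood at 0.27 as reported and at 0.35 with housekeeping scaling. The value of 0.35 is the same by arithmetic with median scaling and with no normalisation, so nothing about housekeeping scaling is read from it. The call at 0.05 ended with housekeeping scaling (adjusted p = 0.215), with no normalisation (0.206), with array weights (0.0754), in an exact permutation test per gene (0.056) and without the failed spots (0.207).

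Leaving out single arrays moved the Gk difference between 0.27 (without HFD replicate 5) and 0.35 (without fucoidan replicate 5), higher with fucoidan in all 12 fits. The adjusted p stayed under 0.05 in 3 of these 12 fits, those without HFD replicate 4, fucoidan replicate 5 or fucoidan replicate 6, and lay between 0.0653 and 0.0939 in the other 9. For Pnpla2, 11 of the 12 fits gave a lower mean with fucoidan, from −0.41 to −0.22, and the fit without HFD replicate 6 gave 0.0034. No fit of Pnpla2 passed, and its largest difference over the scalings was −0.50 with housekeeping scaling (adjusted p = 0.37). Relative to the median of all genes it was −0.38, the same by arithmetic with median scaling and with no normalisation.

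**Figure D3:**
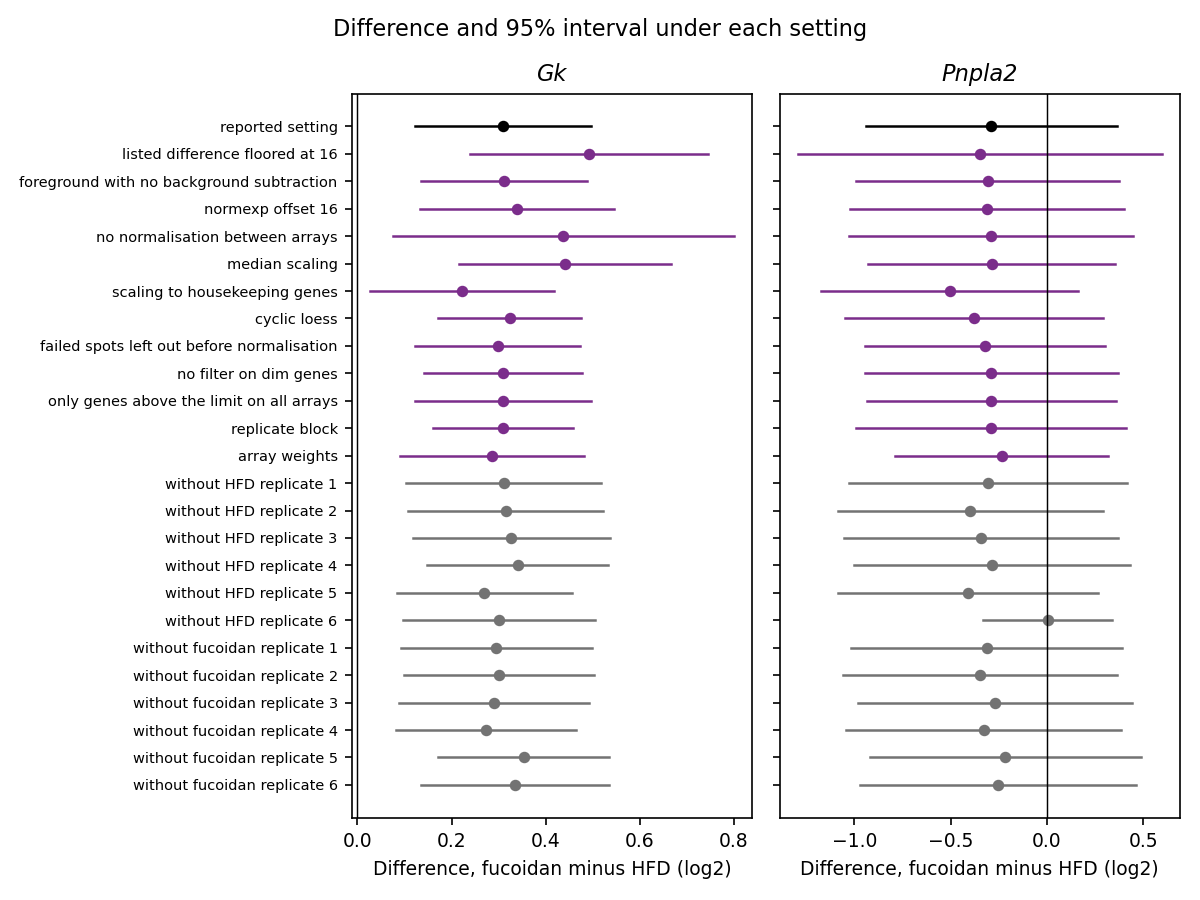
Difference between fucoidan and HFD in log2 units (points) with its 95% interval (lines) for Gk (left) and Pnpla2 (right), under the reported setting (black), other processing (purple) and with 1 array left out (grey). All Gk points lie above 0, between 0.22 and 0.49, while every Pnpla2 interval crosses 0 and the point without HFD replicate 6 sits at 0.

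Whether mice with more Gk also had more Pnpla2 was asked within the groups, with each value taken as its deviation from the group mean, which leaves out the difference between diets. Over all 12 mice Pearson's r was 0.22 (permutation p = 0.45, adjusted p = 0.675) and Spearman's rho 0.36 (permutation p = 0.24, adjusted p = 0.363), both two-sided and adjusted over 3 comparisons. Within the HFD group r was 0.07 (exact permutation p = 0.842) and rho 0.26 (exact permutation p = 0.658). Within the fucoidan group r was 0.75 (exact permutation p = 0.0861, adjusted p = 0.258) and rho 0.60 (exact permutation p = 0.242), so no relation passed in these 12 mice. Without the 2 mice farthest from the median in Gk, r was −0.18 over all mice, −0.82 among HFD mice and 0.34 among fucoidan mice.

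The value over all mice was set by HFD replicate 6, which had the highest Pnpla2 and an ordinary Gk. Without that mouse, a choice made after its value was seen, r was 0.74 over 11 mice (permutation p = 0.0155, adjusted p = 0.0466) and rho 0.59 (permutation p = 0.0752). In both groups replicate 5 was then the lowest mouse for both genes, and r fell to 0.46 without the 2 mice farthest in Gk. Among the remaining 5 HFD mice alone, r went from 0.73 to −0.49 without the 2 farthest in Gk. With other scalings of those 11 mice r was 0.77 with no normalisation (adjusted p = 0.0222), 0.70 with housekeeping scaling (0.0936), 0.62 with cyclic loess (0.139) and 0.53 with median scaling (0.346). Both spots share each array's labelling, hybridisation and brightness, taken as the log2 median foreground of the gene spots.

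Before normalisation both genes followed array brightness within the groups. Over deviations of 12 mice from group means, r of the log2 foreground with brightness was 0.85 for Gk (permutation p = 0.0007, adjusted p = 0.0084) and 0.70 for Pnpla2 (permutation p = 0.00565, adjusted p = 0.0339), adjusted over 12 comparisons. Spearman's rho was 0.80 for Gk (permutation p = 0.0034, adjusted p = 0.0408) and 0.65 for Pnpla2 (permutation p = 0.0321, adjusted p = 0.133), and r was 0.82 and 0.65 without the 2 arrays farthest in brightness. After normalisation r was 0.43 for Gk (permutation p = 0.173, adjusted p = 0.256) and 0.49 for Pnpla2 (permutation p = 0.158, adjusted p = 0.256). The corresponding rho was 0.31 for Gk and 0.32 for Pnpla2 (both permutation p = 0.34, adjusted p = 0.453), and r was 0.50 and 0.29 without those 2 arrays. Within the diets, r of the normalised values with brightness was 0.57 for Gk and 0.64 for Pnpla2 in HFD mice (exact permutation p = 0.232 and 0.142) and 0.30 and 0.03 in fucoidan mice (exact permutation p = 0.568 and 0.951). None of the normalised values passed, and the relation of Gk with Pnpla2 at equal brightness was not tested.

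**Figure D4:**
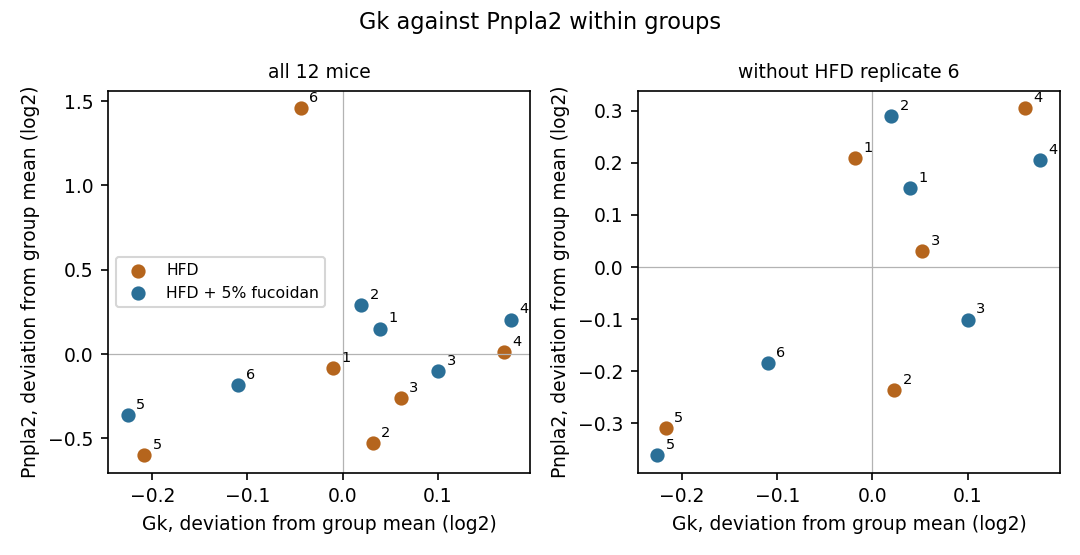
Deviation of Gk (horizontal) and Pnpla2 (vertical) from the mean of the group in log2 units, 1 point per mouse, numbered by replicate, for all 12 mice (left) and without HFD replicate 6 (right, deviations from the mean of the remaining mice). On the left HFD replicate 6 lies far above the rest and r is 0.22, and on the right r is 0.74.

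The genes most like Gk within the groups, among 146 other genes tested on spots other than failed ones, were Cpt1a, Acadm and Hsd17b10. Cpt1a, which admits long-chain fatty acids to mitochondria, had r = 0.77, Acadm, the medium-chain acyl-CoA dehydrogenase, r = 0.74, and Hsd17b10, a mitochondrial dehydrogenase of fatty acid and isoleucine breakdown, r = 0.70 over deviations of 12 mice from group means. The median r of the 146 genes with Gk was 0.06. Without HFD replicate 6 these values were 0.80, 0.79 and 0.70 over 11 mice. As between Gk and Pnpla2, these values share arrays and are a description. None of these 3 genes passed between the diets, with differences of 0.10 for Cpt1a, 0.09 for Acadm and 0.31 for Hsd17b10 (limma adjusted p = 0.54, 0.733 and 0.33), and no test was made of whether their difference departs from that of Gk.

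For the 3 genes most like Pnpla2 within the groups, HFD replicate 6 was the highest HFD mouse. These genes were picked by an r that this mouse dominates, so its rank largely follows from the choice. They were Ucp2, a mitochondrial carrier, with r = 0.85, Rxra, the partner receptor of PPARalpha, with r = 0.76, and Il4ra, a subunit of the interleukin 4 receptor, with r = 0.72. In HFD replicate 6 the normalised log2 intensity of Ucp2 was 8.33 against at most 8.04 in the other HFD mice, that of Rxra was 10.15 against at most 9.74, and that of Il4ra was 8.11 against at most 7.84. Without this mouse r fell to 0.68 for Ucp2, 0.36 for Rxra and 0.41 for Il4ra over 11 mice. Ucp2 was then the third and Gk the first of the genes most like Pnpla2.

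Of 39 genes listed for glycerol use and triglyceride synthesis, storage and hydrolysis, the array carried 7, and 5 were tested. Among them 1 passed in limma as higher with fucoidan, against 3.87% of all genes tested, and 0 passed as lower. That gene was Gk, which was selected on this difference, and 0 of the 3 tested genes other than Gk and Pnpla2 passed. The median difference of the 5 was 0.20 log2 units against 0.04 over all 181 genes tested, of which 40 had an unadjusted p under 0.05. Gk and Pnpla2 are among the 5 and were selected on this difference, so nothing is read from that median. It was also 0.20 for the 3 others, of which Lpl was lower with fucoidan. Gpd1, the dehydrogenase that makes glycerol 3-phosphate from glycolysis and so reaches the product of Gk by another route, gave a signal of 236 to 622 with a median of 484.5 in HFD mice. In fucoidan mice it gave 344 to 857 with a median of 536, and the groups overlapped. Its normalised difference was 0.27 (SE 0.15, adjusted p = 0.322), with 6 of 6 fucoidan mice above the HFD mean. It was 0.17 without HFD replicate 5, 0.12 with cyclic loess and 0.08 with housekeeping scaling.

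The lipases of the list did not pass either. Hepatic lipase, Lipc, which acts on lipoproteins at the liver surface, gave 322 to 507 in HFD mice and 367 to 740 in fucoidan mice, a normalised difference of 0.20 (SE 0.14, adjusted p = 0.413). The Lipc difference was 0.32 without fucoidan replicate 2 (limma adjusted p = 0.0928), 0.10 with cyclic loess and 0.06 with housekeeping scaling. Lpl, the lipoprotein lipase of peripheral tissues, gave 46 to 214 and 48 to 161, a difference of −0.18 (SE 0.17, adjusted p = 0.569). The Lpl difference was −0.29 without HFD replicate 3, −0.12 without HFD replicate 4 or without fucoidan replicate 5, −0.35 with plain subtraction and −0.39 with housekeeping scaling. Lipe, the hormone-sensitive lipase that acts after adipose triglyceride lipase, and Plin1, which coats adipocyte lipid droplets, were above the detection limit on 0 of 12 arrays and were not tested. Among the lipases of stored triglyceride on the array, Pnpla2 was thus above the limit and Lipe was not.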

How the data were processed

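Per the labels' protocols, 10 micrograms of total liver RNA of each mouse was labelled and hybridised to a cDNA array. A GenePix 4000B scanner (532 nm) and GenePix Pro 6.0.1.27 were used, per the file headers. The deposited spot table holds linear intensity (foreground, local background and their difference), unscaled between arrays, and later steps are not given in the sources used here. The deposited value table also holds intensity, from −27 to 50344, with scale and centring unknown, and its 354 unnamed rows matched no spot within 1 on all 12 arrays, so it was not used further. In replicate order, the medians of its HFD columns were 139.5, 116, 132, 129.5, 121 and 113.5, and those of its fucoidan columns 171, 155, 126, 102.5, 119 and 135.

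Intensities were corrected in limma 3.58.1 under R 4.3.3 (normexp, offset 50), quantile normalised over 354 gene spots and averaged by probe and gene as log2. A missing foreground of another gene was set to background plus listed difference. A gene had to exceed the limit on 6 arrays or more to be tested (lmFit and eBayes, two-sided, Benjamini-Hochberg, threshold 0.05). Correlations were tested with 100000 permutations of pairings within groups (20000 for alternatives and for array brightness) or all 720 pairings of 6 mice, in Python 3.11.15 with scipy 1.17.1. The fit was also run on simulated data with normal noise and planted changes larger than the Gk difference. Those data do not cover a change as small as that of Gk or a mouse far from its group.

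Members, gene lists and tests were chosen with earlier results of these data known. Named genes are Gk, Pnpla2, the listed genes of glycerol and triglyceride metabolism on the array, and the 3 genes most like each member. Replicate numbers come from the sample titles.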

Additional observations from a re-analysis of the deposited data

Results flagged for a closer look

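The normalised log2 intensity of Pnpla2 in HFD replicate 6 was 9.8343, with 8.39 as the next highest HFD value. Its gap to the nearest mouse was 0.702 of the range of the group, above the critical value of 0.625 for 6 samples. For normally distributed values chance flags about 1 in 20 groups, but over the 181 genes tested here the limit was met more often than that. This mouse met it as high in 3 of the 181 genes, and the other mice in 0 to 4. Of the other 9 groups of 6 tested for Gk, Pnpla2, Gpd1, Lipc and Lpl, 0 met this limit. The difference between diets was −0.29 with this mouse and 0.0034 without it, and the cause of the value was not tested.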

How the results depend on the processing

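The Gk difference of 0.31 kept its direction under all 13 other settings and all 12 fits without 1 array. Its call ended under 5 of the 13, at 0.29 with array weights, 0.44 with no normalisation, 0.22 with housekeeping scaling, 0.30 without the failed spots and 0.31 in the exact permutation test, and in 9 of the 12 fits without 1 array, with values from 0.27 to 0.35. Without HFD replicate 6, 2 of 4 further scalings ended it, at 0.46 with no normalisation and 0.21 with housekeeping scaling. With the replicate number as a block, Gk kept 0.31 (adjusted p = 0.0396) and Pnpla2 −0.29 (0.618), while 9 genes passed instead of 15. The SE of the Gk difference was 0.063 with the block and 0.086 without it. Of 6 same-numbered pairs, 2 had deviations correlated over 0.1 (range −0.23 to 0.18), and 3 of 12 mice correlated best with their own number. For Gk, however, replicate 4 was the highest and replicate 5 the lowest mouse in both groups. These values do not settle whether the numbers pair the mice. The Pnpla2 difference ranged from −0.41 to 0.0034 without 1 array, and without HFD replicate 6 it turned to 0.043 with no normalisation and 0.0014 with median scaling, with −0.21 and −0.072 under housekeeping scaling and cyclic loess. The correlation of Gk with Pnpla2 was 0.00089 to 0.51 under 8 other settings, and 0.029 to 0.74 without 1 array. It passed only without HFD replicate 6, at 0.74, and at 0.77 when arrays were then not normalised. The count of genes called was 25 with plain subtraction, 9 with the block and 0 without the failed spots (limma, 15 of 147 at an unadjusted p under 0.05), and 9 to 17 without 1 array, lowest without HFD replicate 3 or HFD replicate 5. Of the calls, 7 were higher and 8 lower as reported, 5 and 10 with median scaling, 4 and 9 with cyclic loess, 2 and 11 with housekeeping scaling and 2 and 10 with no normalisation. The causes of these changes were not tested. Both genes are dim, at no more than 7.22 times the detection limit, which limits the precision of their ratios.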
